A study of Mus musculus with 27 samples.

Results

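Hnrnpu, Matr3, Safb, Lmna, Lmnb1, Lmnb2, Lbr, Emd, Tmpo and Banf1 encode proteins of the nuclear matrix and the nuclear lamina. They were chosen by name, as the matrix protein known to bind the Firre long non-coding RNA, other matrix proteins, and the lamina proteins that hold chromatin at the nuclear edge, and their RNA was followed in mouse embryonic fibroblasts (MEFs) with and without the Firre locus. Each symbol matched 1 gene, so 10 of the 37310 genes of the deposited count table are described. All 10 passed the filter on low counts, which left 15387 genes for testing.

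The nuclear lamina is a mesh of A-type and B-type lamins under the inner nuclear membrane. Membrane proteins such as the lamin B receptor, emerin and the LAP2 family fasten it to the membrane, and the small DNA-bridging protein BAF, encoded by Banf1, links proteins with a LEM domain to chromatin. In the nuclear interior, RNA-binding matrix proteins such as hnRNPU hold RNA and chromatin together, and hnRNPU binds Firre through repeats in the RNA and is needed for the RNA to stay at its site. Lamin A is abundant in mesenchymal cells such as fibroblasts, whereas LBR and the B-type lamins are prominent in early and dividing cells.

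MEFs are primary connective-tissue cells grown from the trunk of mid-gestation embryos after the organs, head and limbs were removed. The 12 libraries form 4 groups of 3 replicates, namely female wild-type, female Firre KO, male wild-type and male Firre KO cells. In the KO mice, recombination between inserted loxP sites had removed the whole X-linked Firre locus, and the sources name no other allele or agent in either genotype and no strain for these RNA libraries. Cultures were set up from individual embryos, but nothing states which embryo, litter or passage each RNA library came from, so p-values measure only the spread between these libraries. Neither sex nor genotype can therefore be told apart from embryo line or culture, and sex also goes with the total counts of the libraries.

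Total expected counts ranged from 42986516 to 51481034 in the female libraries and from 51521907 to 65454660 in the male libraries. Firre (6720401G13Rik in the table, mm9 chromosome X, 47908921-47988498) had 90 to 129 expected counts in female wild-type and 239 to 307 in male wild-type cells, and 0 in all 6 KO libraries. The fibroblast genes Col1a1, Col1a2, Fn1 and Vim were abundant in every group. Summed over 5 macrophage genes, CPM (the count of a gene relative to the TMM-scaled total of its library) was 28.6 to 91.6 in the female and 5.84 to 12.1 in the male libraries, and no marker on the lists used was at 0 in all libraries. Replicate 3 of each male genotype stood apart from replicates 1 and 2: the chi-square per degree of freedom over genes between replicates was 38.0 to 45.3 in pairs with male replicate 3 and 7.57 to 16.5 in all other pairs within a group. In bulk RNA, fewer cells of a type and less RNA per cell cannot be told apart.

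Per unit of length, the A-type lamin was the most abundant of the 10 transcripts. Expected counts were divided by the merged exon length of each gene and brought to the same total over all genes in every library (a TPM-like value), a scale called per-length level here. Lmna, which encodes lamins A and C, had a mean per-length level of 445.7 over the 12 libraries, above that of 97.8% of the genes tested. Banf1 followed with 304.4 and Hnrnpu with 288.3, and Banf1 was the higher of this pair in 10 of 12 libraries. Matr3 had a per-length level of 161.3. Emd (100.9) and Lmnb1 (97.0) changed places from library to library, Emd being higher in 6 of 12. Tmpo (77.9) was above Safb (72.1) in 8 of 12 libraries, and although the range of Tmpo overlapped that of Lmnb1, Lmnb1 was the higher in 12 of 12 libraries. Lbr had 49.3 and Lmnb2 only 15.3, and neither overlapped its neighbours in this order.

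**Figure D1:**
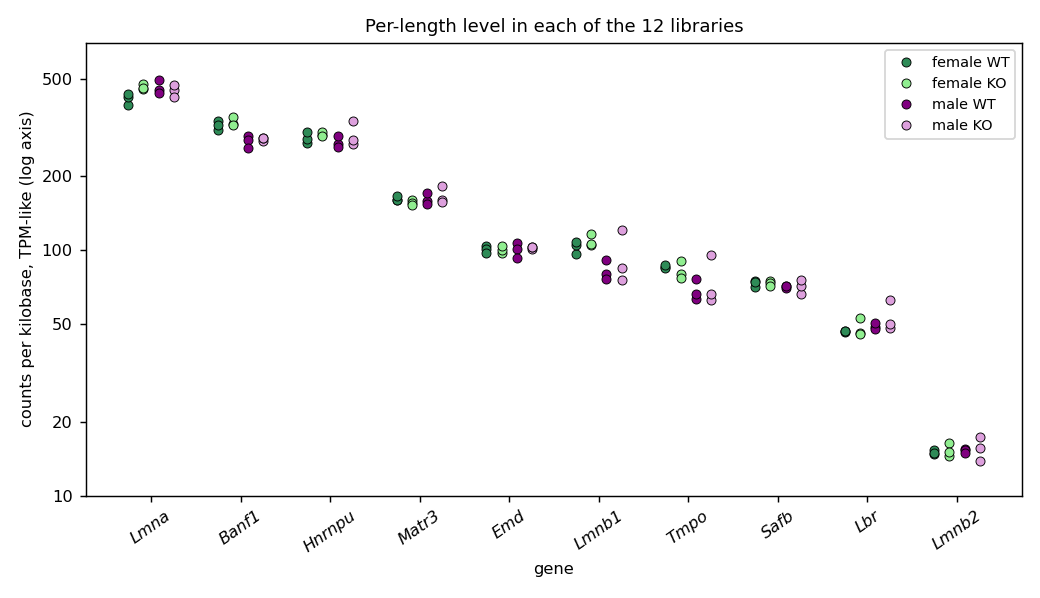
Per-length level (expected counts per kilobase of merged exons, on a TPM-like scale, log axis) of the 10 genes, ordered by their mean over the 12 libraries. Each point is 1 library, coloured by group, and the order runs from Lmna at 445.7 to Lmnb2 at 15.3.

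The lamins were therefore unequal in these cells. The per-length level of Lmna was 4.04 ± 0.03 (SD, n = 3) times that of Lmnb1 in female wild-type, 4.25 ± 0.12 in female KO, 5.63 ± 0.83 in male wild-type and 4.99 ± 1.32 in male KO cells. Of these, male KO replicate 3 had the lowest ratio of any library, 3.49, and male wild-type replicate 2 the highest, 6.44. Against Lmnb2, the ratio of Lmna was 27.7 ± 1.84 in female wild-type cells and between 28.9 and 30.2 on average in the other groups. Merged exon length counts every annotated exon, so a gene that uses a short isoform is understated on this scale. Expected counts of Hnrnpu, Safb, Emd and Tmpo were not whole numbers in any library, since reads that fit more than 1 place are shared out by the estimate, and those of the other 6 genes were whole within 0.001. The spans of 4 genes overlap another annotated gene, on the opposite strand for Tmpo (Gm17499) and on the same strand for Hnrnpu (Gm16586), Emd (Gm14686) and Lbr (a 5S rRNA gene), so reads there may be shared. Of these, Lbr alone had whole counts in every library, so its counts show no sign of shared reads. The sources used here do not state that counting used strand.

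Deletion of Firre was compared with wild type within each sex, to ask whether loss of an RNA that hnRNPU binds goes with a change in the transcripts of the matrix and lamina. None of the 10 genes passed edgeR's quasi-likelihood test at a Benjamini-Hochberg adjusted p of 0.05, in female cells, in male cells, or in the average of both sexes. Over all genes tested, 0.013% passed in female cells, 0.0065% in male cells and 0.0195% in the average, Firre among them each time, so 0 of 10 is also what the background share gives. At an unadjusted p under 0.05, 1 of the 10 genes passed in female cells, 0 in male cells and 0 in the average, against 7.55%, 2.06% and 6.24% of all genes tested. With same-numbered male libraries taken as pairs in the edgeR fit, an alternative chosen after the data were seen, 1 passed at that level in male cells (Hnrnpu) and 3 in the average (Hnrnpu, Lmna and Lmnb1), against 4% and 10.7% of all genes, and 0 passed after adjustment. DESeq2 likewise called 0 of the 10 genes in each. The median log2 fold change of the 10 genes was 0.07 in female and 0.03 in male cells, against 0.00 over all genes tested in both, and all 10 lay between 0.00 and 0.14 in the average. Markers of dividing cells differed in the same direction: each of 10 proliferation genes had a positive value in female cells, male cells and the average (medians 0.15, 0.14 and 0.15), with 0 of 10 passing the adjusted edgeR test and 4 of 10 an unadjusted p under 0.05 in the average. Their summed CPM was 1026 to 1087 in female wild-type and 1096 to 1267 in female KO libraries, which do not overlap, and 1019 to 1137 and 1027 to 1397 in the male groups, which do. The other marker lists also had 0 genes passing the adjusted test. Of 4 epithelial genes, 0 had a positive value in female cells (median -0.99) and 3 in male cells (median 0.48), and their summed CPM was 20.8 to 32.7 in female wild-type and 17.1 to 20.6 in female KO libraries, which do not overlap. Of 10 fibroblast genes, 2 had a positive value in each sex (medians -0.09 and -0.02). The median of 3 endothelial genes was -0.89 in female and -0.57 in male cells, that of 3 neural genes -0.07 and -0.54, that of 3 muscle genes -0.09 and -0.24, and that of 5 macrophage genes -0.02 and 0.16. Of 3 genes of cell cycle arrest, 0 had a positive value in either sex (medians -0.12 and -0.06). The part of these genes in the values of the 10 was not tested.

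**Figure D2:**
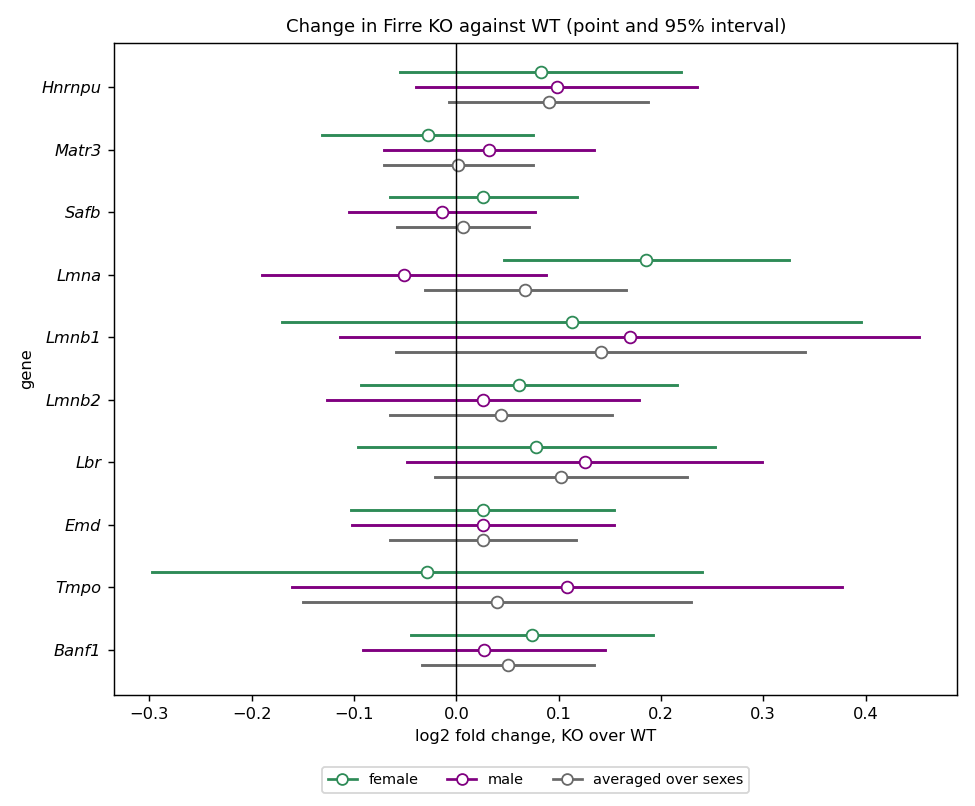
Log2 fold change of each gene in Firre KO over wild-type cells, with its 95% interval, in female cells, male cells and the average of both sexes. No point passed the test after adjustment, and only Lmna in female cells has an interval that lies wholly above 0.

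Hnrnpu (mm9 chromosome 1, 180253205-180267928, minus strand) encodes hnRNPU, also called scaffold attachment factor A. Its CPM was 579, 609 and 628 in female wild-type cells and 635, 651 and 637 in female KO cells. In male cells it was 567, 549 and 600 in wild type and 568, 589 and 679 in KO. The female groups did not overlap, whereas the male groups overlapped and replicate 3 was the highest library of each male genotype. The log2 fold change in KO was 0.08 (95% interval -0.06 to 0.22) in female cells and 0.10 (-0.04 to 0.24) in male cells. The average over both sexes was 0.09 (-0.01 to 0.19), with an adjusted p of 0.805 by edgeR's quasi-likelihood test. Each male KO library was above the wild-type library of the same number, from 567 to 568, from 549 to 589 and from 600 to 679, although no label says what a number shares. Without male KO replicate 3 the male difference was 0.02 and the average over both sexes 0.05. Without replicate 3 of both male genotypes the male difference was 0.05. The upper end of the male interval is 1.18-fold, so a change of 2-fold lies outside the interval in both sexes.

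Matr3 on chromosome 18 encodes matrin 3, an RNA-binding protein of the inner matrix. Its CPM ranged from 242 to 276 over the 12 libraries, a 1.14-fold span and the narrowest of the 10 genes. The average change in KO was 0.00 on the log2 scale (95% interval -0.07 to 0.07). Safb (chromosome 17, 56724405-56745717, plus strand) encodes scaffold attachment factor B, which binds matrix attachment DNA and RNA, and it lay between 74.9 and 86.4 CPM with an average change of 0.01 (-0.06 to 0.07). For both genes the wild-type and KO libraries overlapped in each sex.

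Lmna (chromosome 3, 88285070-88313878, minus strand) gave the largest change in female cells among the 10 genes. Its CPM was 595, 646 and 642 in female wild-type and 694, 735 and 713 in female KO libraries. In male cells it was 673, 737 and 646 in wild type and 674, 704 and 607 in KO. All female KO libraries were above all female wild-type libraries, while the male genotypes overlapped and replicate 3 was the lowest male library in each genotype. In female cells the log2 fold change was 0.19 ± 0.06 (SE), or 1.14-fold (95% interval 1.03 to 1.25), with an unadjusted p of 0.0134 and an adjusted p of 0.547 by edgeR's quasi-likelihood test. In male cells it was -0.05 (-0.19 to 0.09). The difference between the sexes was 0.24 (0.04 to 0.43), with an unadjusted p of 0.0225 and an adjusted p of 1.00 in the edgeR test. Of all genes tested, 0% passed the adjusted test of that difference, and Lmna was 1 of 491 with an unadjusted p under 0.05.

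Lmnb1 on chromosome 18 and Lmnb2 (chromosome 10, 80363948-80380990, minus strand) encode the B-type lamins, which stay farnesylated and bound to the membrane. Lmnb1 had 102, 112 and 111 CPM in female wild-type and 112, 125 and 115 in female KO libraries. In male cells it had 83.1, 79.7 and 94.0 in wild type and 79.2, 88.4 and 121 in KO. The female genotypes were separated by less than the gap between replicates, and in male KO cells replicate 3 was far above the other two. The change in KO was 0.11 (95% interval -0.17 to 0.40) in female and 0.17 (-0.11 to 0.45) in male cells, the widest intervals of the 10 genes in males. Without female KO replicate 2 the female value was 0.07. Without male KO replicate 3 the male value was -0.03, and without replicate 3 of both male genotypes 0.04. Lmnb2 stayed between 21.0 and 25.6 CPM, and its average change was 0.04 (-0.06 to 0.15).

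None of the 4 inner membrane and chromatin-binding genes separated the genotypes in either sex. Lbr (chromosome 1, 183745447-183772532, minus strand) encodes the lamin B receptor, which is also a sterol reductase. It had 59.0, 59.8 and 58.0 CPM in female wild-type, 58.9, 68.4 and 59.3 in female KO, 60.7, 59.6 and 61.9 in male wild-type and 60.5, 62.9 and 75.3 in male KO libraries. Each KO group held 1 library above the rest, female replicate 2 and male replicate 3. The average change was 0.10 (95% interval -0.02 to 0.23). The female change of 0.08 was 0.0045 without female KO replicate 2, and the male change of 0.13 was 0.024 without male KO replicate 3. Emd (chromosome X, 71500026-71506887, plus strand) encodes emerin, a LEM-domain protein, and had an average change of 0.03 (-0.06 to 0.12).

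Tmpo (chromosome 10, 90610316-90634759, minus strand) encodes the LAP2 proteins, of which some span the membrane and one binds lamin A in the nuclear interior. Its average change in KO was 0.04 (95% interval -0.15 to 0.23). Banf1 (chromosome 19, 5364641-5366645, minus strand) encodes BAF and had an average change of 0.05 (-0.03 to 0.13).

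Counted over the 10 genes, the wild-type and KO libraries did not overlap for 3 in female cells (Hnrnpu, Lmna and Lmnb1, all higher in KO) and for 0 in male cells. Over all genes tested, 19.1% did not overlap in female cells and 5.29% in male cells.

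**Figure D3:**
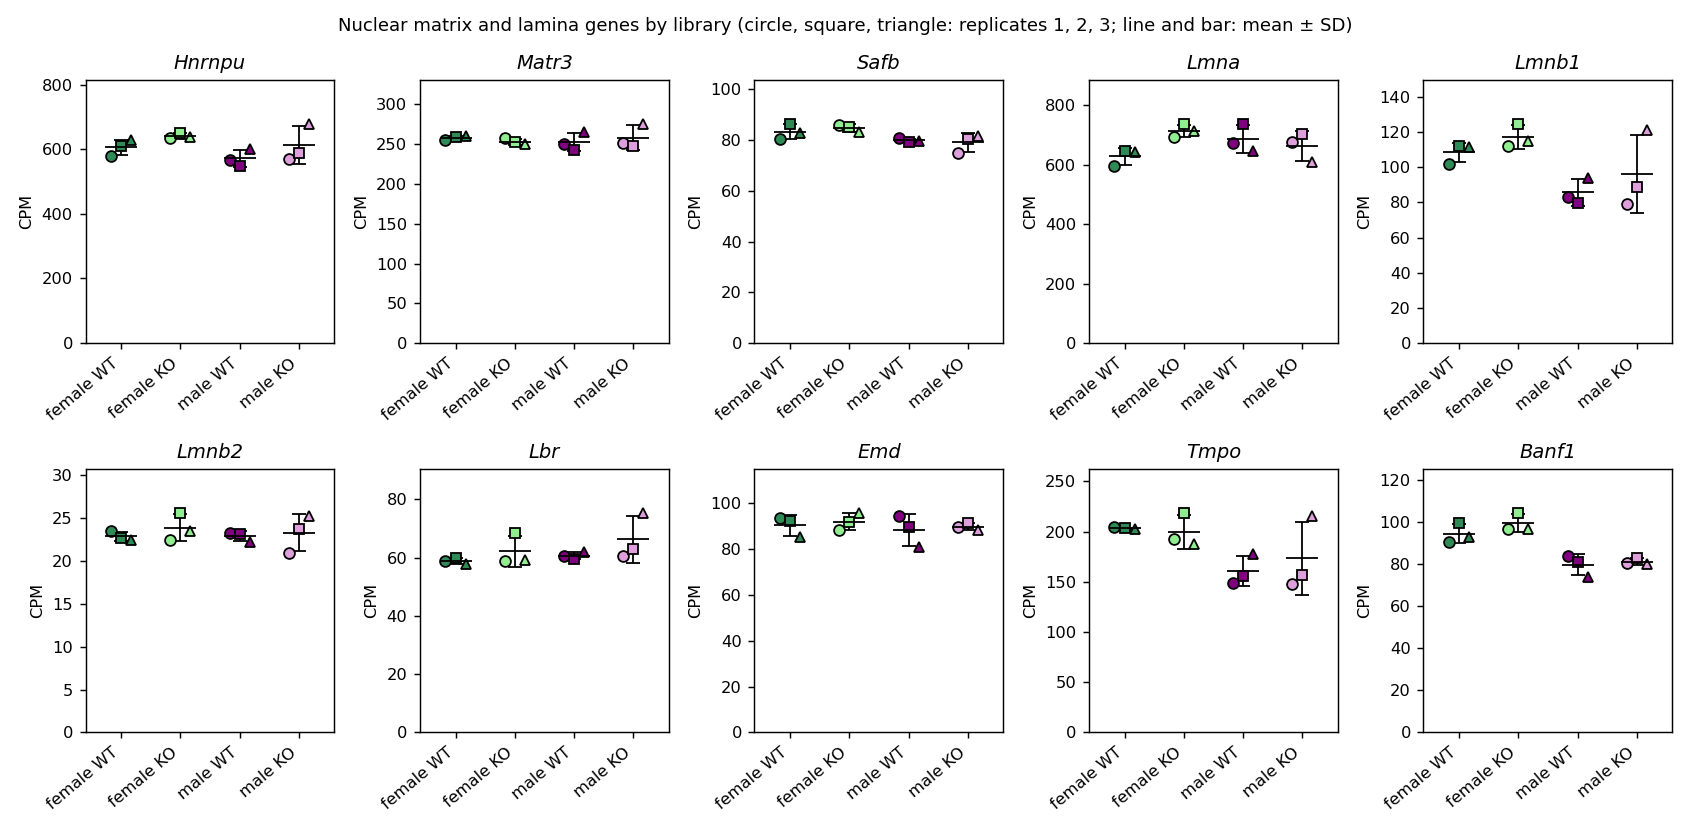
CPM of each gene in every library, by group, with replicates 1, 2 and 3 as circle, square and triangle and the mean ± SD of 3 replicates as line and bar. Female groups lie above male groups for Banf1, and the male KO triangle is the highest male point for Lmnb1, Lbr and Tmpo.

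The sexes were compared within each genotype, since the design holds both. Banf1 was higher in female cells in both genotypes. It had 90.6, 99.4 and 93.0 CPM in female wild-type and 96.8, 104 and 96.8 in female KO libraries. Male wild-type libraries had 83.8, 81.1 and 74.1 CPM and male KO libraries 80.7, 83.0 and 79.9. Every female library was above every male library. The log2 difference, female minus male, was 0.24 ± 0.05 (SE) in wild type, with an adjusted p of 0.00492, and 0.29 ± 0.05 in KO, with an adjusted p of 0.00187, both by edgeR's quasi-likelihood test.

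Tmpo was higher in female wild-type than in male wild-type cells. It had 204, 203 and 203 CPM in female wild-type and 192, 218 and 188 in female KO libraries. Male wild-type libraries had 149, 156 and 177 CPM and male KO libraries 148, 157 and 215. The wild-type sexes did not overlap, but male KO replicate 3 reached into the female KO range. The log2 difference was 0.34 ± 0.12 (SE) in wild type, with an adjusted p of 0.0467 in the edgeR test. That call is marginal: it was lost when any wild-type library other than male replicate 3 was left out (adjusted p up to 0.147), in DESeq2, and in edgeR with no filter on low counts. In KO the difference was 0.20 (95% interval -0.07 to 0.47), with an adjusted p of 0.210 by edgeR.

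Lmnb1 had a difference of the same size as Tmpo in wild type, 0.34 (95% interval 0.06 to 0.62), with an adjusted p of 0.0568 by edgeR's quasi-likelihood test, and of 0.28 (0.00 to 0.57) in KO. Safb had 0.10 (0.01 to 0.19) in KO, with an adjusted p of 0.0755 by the same test. Emd, whose gene is X-linked, had a difference of 0.03 in both genotypes (-0.10 to 0.16). Lmna had -0.13 (-0.27 to 0.01) in wild type and 0.11 (-0.03 to 0.25) in KO, and the gap between these values is the difference between the sexes given above. The wild-type value of Lmna was -0.07 without male wild-type replicate 2, and the KO value 0.05 without male KO replicate 3. The other genes lay between -0.09 (Lbr in KO) and 0.08 (Hnrnpu in wild type).

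In all, 2 of the 10 genes were called higher and 0 lower in female wild-type cells, against 18.9% and 19.8% of all genes tested. In KO cells 1 was called higher and 0 lower, against 18.9% and 19.7%. The libraries of the sexes did not overlap for 4 of the 10 genes in wild type and 2 in KO, against 51.9% and 50.2% of all genes tested; the counts of these genes lie near or below those shares. The median difference of the 10 genes was 0.05 in wild type and 0.08 in KO cells.

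**Figure D4:**
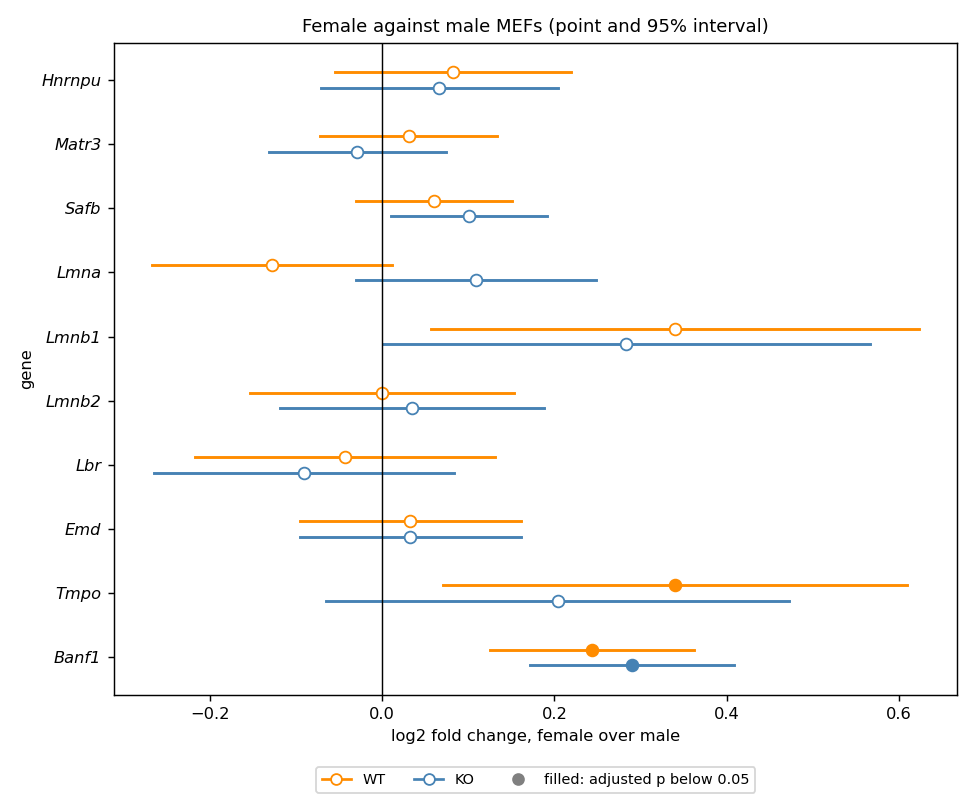
Log2 fold change of each gene in female over male cells, with its 95% interval, in wild-type and in KO cells. Filled points passed the adjusted test: Banf1 in both genotypes and Tmpo in wild type.

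The counts of calls between the sexes shifted with the libraries used. With male replicate 3 of both genotypes left out, an alternative chosen after the data were seen, 5 of the 10 genes were called between the sexes in each genotype, against 45.1% of all genes tested that way in wild type and 44.6% in KO, so the count of these genes is near the background. In wild type Lmnb1 (0.41), Tmpo (0.42), Banf1 (0.19) and Hnrnpu (0.12) were then higher and Lmna (-0.17) lower in female cells. In KO cells Lmnb1 (0.48), Tmpo (0.39), Banf1 (0.28), Hnrnpu (0.15) and Safb (0.12) were higher. The same omission left 0 of the 10 genes called for KO against wild type.

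The 10 genes also varied among libraries of the same group. On a log2 scale relative to the mean of its own group, male KO replicate 3 was at 0.36 for Lmnb1, 0.19 for Lbr, 0.33 for Tmpo and 0.15 for Hnrnpu, at -0.12 for Lmna and at only -0.02 for Banf1. Male KO replicate 1 was at -0.26 for Lmnb1 and -0.21 for Tmpo. Female KO replicate 2 was at 0.14 for Lbr, 0.13 for Tmpo and 0.09 for Lmnb1. The summed CPM of the 10 proliferation genes was also highest in male KO replicate 3 (1397) and female KO replicate 2 (1267), and 1019 to 1137 in the other libraries. Its part in the differences was not tested.

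**Figure D5:**
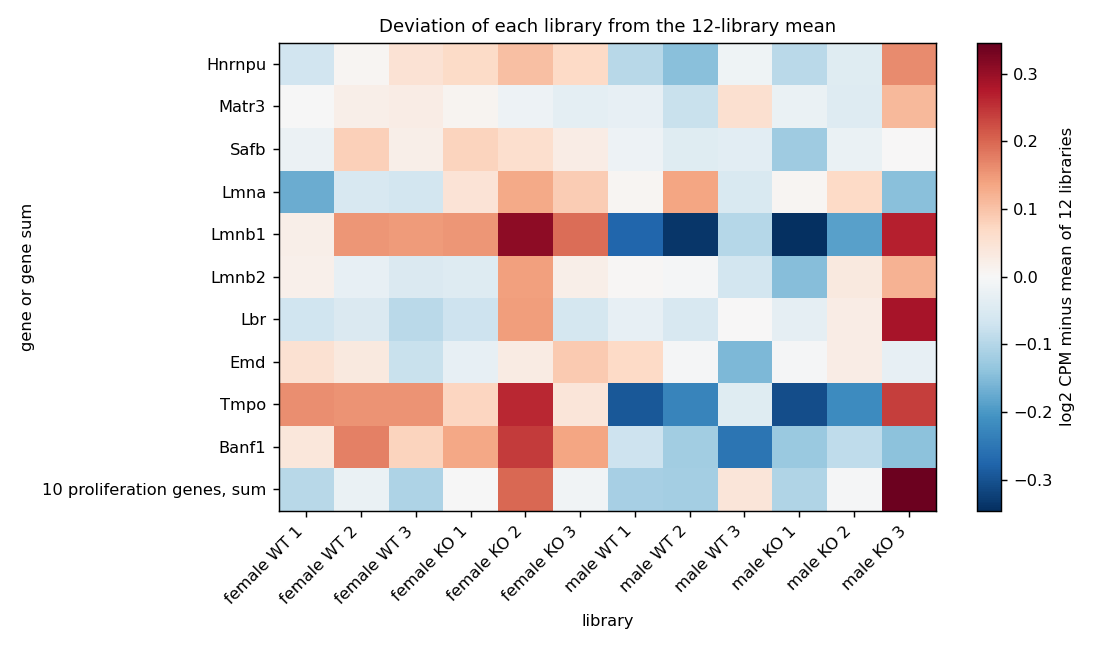
Log2 CPM of each gene minus its mean over the 12 libraries, with the sum of 10 proliferation genes in the bottom row. Male KO replicate 3 and female KO replicate 2 are the highest libraries for the proliferation sum (1397 and 1267 CPM) and for Lmnb1 and Tmpo, and Lmna is low in male KO replicate 3.

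Between the sexes, 3 of the 10 proliferation genes were called higher and 1 lower in female wild-type cells, against the shares of all genes given above, 18.9% higher and 19.8% lower. Mki67, which encodes the Ki-67 protein, was the lower one (-0.42), and Plk1, a mitotic kinase, and Pcna, the replication clamp, were higher (0.27 and 0.20). In KO cells 2 were higher and 1 lower. All 5 macrophage genes were called higher in female cells in both genotypes, as were 4 of 4 epithelial and 3 of 3 endothelial genes in wild type and 1 of each in KO. Of 3 tested muscle genes 1 was higher in wild type and 2 in KO, and of 3 tested neural genes likewise 1 and 2. Of 10 fibroblast genes, 0 were called higher and 2 lower in wild type, which for the lower ones is near the share of all genes, and 1 higher and 4 lower in KO. The part of other cell types in the differences of Banf1 and Tmpo was not tested.

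The promoter sequences of Tmpo and Banf1, the genes called between the sexes, are shown because each has a window with a match to the E2F box, a motif of genes that rise with the cell cycle. RefSeq windows (build GRCm38.p6, the 250 bases before an annotated start, 5′ to 3′ on the gene's strand) matched 8 of the 10 genes with 12 windows. Matr3 and Lmnb1 had no window and were not searched. The E2F box was searched on both strands as TTTCCCGC, TTTGGCGC, TTTCGCGC or TTTGCCGC, and the CCAAT box as CCAAT. Capitals mark both motifs. The first Tmpo window is chr10:91170551-91170800, the second chr10:91171620-91171869, and that of Banf1 chr19:5366877-5367126, all on the minus strand. On that strand the first Tmpo window lies downstream of the second. The second, before the start further upstream, holds no E2F box. A second Banf1 window holds neither box and is not printed.
Tmpo, first window: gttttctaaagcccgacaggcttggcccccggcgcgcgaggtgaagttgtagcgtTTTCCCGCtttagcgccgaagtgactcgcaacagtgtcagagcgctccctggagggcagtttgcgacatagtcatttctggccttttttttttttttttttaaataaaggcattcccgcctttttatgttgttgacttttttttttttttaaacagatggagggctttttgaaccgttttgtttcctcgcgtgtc
Tmpo, second window: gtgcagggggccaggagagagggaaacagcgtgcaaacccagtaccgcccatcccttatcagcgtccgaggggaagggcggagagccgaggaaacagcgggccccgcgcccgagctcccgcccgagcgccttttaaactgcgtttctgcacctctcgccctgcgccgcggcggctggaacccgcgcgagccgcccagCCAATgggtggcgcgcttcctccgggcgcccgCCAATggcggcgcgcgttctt
Banf1: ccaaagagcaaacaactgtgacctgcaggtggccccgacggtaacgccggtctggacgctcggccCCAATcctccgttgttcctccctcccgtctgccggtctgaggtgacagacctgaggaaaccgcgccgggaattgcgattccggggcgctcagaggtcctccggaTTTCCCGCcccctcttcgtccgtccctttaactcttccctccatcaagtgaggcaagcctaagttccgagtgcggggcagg
The E2F box was found in 2 of the 12 windows, against 1.86% of 32851 windows of all genes, and both are printed above. The CCAAT box was found in 5 of the 12 windows, belonging to Banf1, Emd, Lbr, Lmna and Tmpo, against 33.8% of all. These are matches of letters, searched after the calls were known, and nothing here measures binding at them.

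Among 8835 genes with a mean CPM above 10, the genes whose pattern over the 12 libraries was nearest to that of Hnrnpu were Cse1l, Naa50 and Trim27. Likeness was the root mean square difference between log2 CPM values centred on each gene's mean, and it was 0.03 for all 3. Cse1l encodes the export receptor of importin alpha, and its CPM was 175 to 212 in male KO and 174 to 185 in male wild-type libraries. As with Hnrnpu, male KO replicate 3 was its highest library, which the choice by likeness over these same libraries favours.

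Other genes of the nuclear envelope and matrix were taken from 5 lists. For KO against wild type averaged over the sexes, 0 of 14 tested genes of the envelope and of LINC complexes, 0 of 6 of lamin processing, 0 of 20 of the matrix and RNA-binding scaffold, 0 of 12 chromatin partners and 0 of 9 nuclear pore genes passed edgeR's adjusted test. Their median log2 fold changes were 0.01, 0.00, 0.03, 0.04 and 0.05, against 0.00 over all genes tested. At an unadjusted p under 0.05 there were 2 matrix and 2 pore genes and 0 in the others, against 6.24% of all genes tested. The gene of each list with the smallest unadjusted p was Syne2 (0.14), Fnta (0.05), Hnrnpul1 (0.07), Ehmt2 (0.06) and Nup98 (0.07). Single libraries moved 3 of these values: Syne2 was at 0.08 and Ehmt2 at 0.04 without male wild-type replicate 3, and Fnta at 0.03 without male KO replicate 1. Without replicate 3 of both male genotypes Syne2 was at 0.05.

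Between the sexes, the counts of the lists stand against 18.9% of all genes called higher in female cells in each genotype and 19.8% (wild type) and 19.7% (KO) called lower. In wild type 2 envelope genes were called higher in female cells and 4 lower, and in KO 2 higher and 3 lower. Tor1aip1, which encodes LAP1, was higher (0.27 in wild type and 0.20 in KO), and so was Tmem201 (0.31 and 0.39). Sun1 (-0.24 and -0.28) and Syne1 (-0.47 and -0.35), whose products join across the envelope to couple nucleus and cytoskeleton, were lower. The Syne1 call in KO was lost without female KO replicate 1, female KO replicate 3 or male KO replicate 1 (adjusted p from 0.0517 to 0.0625 by edgeR), and the Tmem201 call in wild type without male replicate 2 (0.0504).

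Of the lamin processing genes, Narf was lower in female cells (-0.80 in wild type and -0.71 in KO), the only one called in wild type, while 1 gene of the list was higher in KO. Of the matrix list, 2 were higher and 4 lower in wild type and 1 higher and 3 lower in KO. Satb1, a chromatin organiser, was higher (0.68 and 0.50), and Sltm, a relative of Safb (-0.26 and -0.25), and the topoisomerase gene Top2b (-0.19 and -0.18) were lower. The Top2b calls are marginal. In wild type the call was lost with total counts as library size and without female replicate 2 or 3 or male replicate 1 or 3 (adjusted p from 0.0565 to 0.0864 by edgeR). In KO it was lost with only the libraries compared and without any female library or male replicate 3 (0.0559 to 0.0862). The Satb1 call in KO was lost without female replicate 1 (0.0514). Among chromatin partners 0 were higher and 2 lower in wild type and 0 and 3 in KO, Ehmt1 among them (-0.25 and -0.21). Of the pore genes 3 were higher in wild type and 4 in KO, with 0 lower. They include Pom121 (0.19 and 0.33) and Nup210 (2.06 and 1.41), which stood at only 0.23 to 0.96 CPM on average.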

How the data were processed

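RNA was sequenced from 12 MEF libraries, in 4 groups of 3 by sex and genotype as the labels give them. The authors mapped reads with Bowtie2 and estimated expected counts per gene with RSEM 1.2.29 on mm9, and deposited these estimated counts for all 12 libraries in 1 table, with no filter or normalization stated. The gene identifiers match GENCODE vM1 on NCBIM37, which supplied coordinates and merged exon lengths. The 10 genes, the other lists and the tests were chosen with earlier results of these data known, so no list is independent support for a pattern.

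Counts were rounded to whole numbers. Genes were kept by edgeR's filterByExpr (minimum count 10), libraries were scaled by TMM, and edgeR 4.0.16 in R 4.3.3 fitted its quasi-likelihood test to all 12 libraries as 4 groups (8 residual degrees of freedom, common coefficient of variation 0.114), with Benjamini-Hochberg adjustment over 15387 genes and calls at an adjusted p under 0.05. Values of log2 fold change carry 95% intervals from the fit. The script was tested on simulated counts. Alternatives were DESeq2 1.42.0 with its mean dispersion fit, DESeq2 size factors, total counts as library size, no filter, 10 counts in every library, only the libraries compared, the study's thresholds (adjusted p under 0.01 and log2 fold change over 1), a replicate block and each library left out. The least abundant of the 10 genes, Lmnb2, had at least 993 expected counts in each library and the others more, and there were 3 libraries per group to estimate the spread.

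Named were the 10 genes, Firre, the 3 genes nearest to Hnrnpu in pattern, in each list the gene with the smallest unadjusted p for KO, and up to 2 higher and 2 lower genes per list called between the sexes in both genotypes. Other genes named from the proliferation and marker lists, and the promoter motifs, were chosen after their values were seen. Same-numbered male libraries deviated together from their group means (correlations across genes from 0.288 to 0.593, against -0.631 to 0.352 for male pairs with different numbers, so that wild-type replicate 1 was nearest to KO replicate 2) and female ones did not (-0.171 to -0.0688), so the replicate numbers were taken as pairs in male cells only, although no label says what a number shares. Hi-C and ChIP-seq data were not used here. RefSeq promoter windows (GRCm38.p6) were used for sequence only and never set against mm9 coordinates.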

Additional observations from a re-analysis of the deposited data

How the results depend on the processing

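The count of the 10 genes called for KO against wild type was 0 under every alternative in female cells, male cells, their average and the difference between the sexes. Counts between the sexes changed: in wild type (2 in the report, of 5953 calls over all genes) DESeq2 called 1 (of 6275), no filter on low counts 1 (of 5412), the study's thresholds 0 (of 698), at least 10 counts in every library 3 (of 5504), only the libraries compared 3 (of 5504; Lmnb1 was added in both), and leaving out male replicate 3 of both genotypes 5 (of 6985), with 1 to 3 over single libraries left out. In KO (1 in the report, of 5949) DESeq2 called 2 (of 6265), the study's thresholds 0 (of 599), and leaving out male replicate 3 of both genotypes 5 (of 6915), with 1 to 5 over single libraries left out; the 5 (of 5962) came without male KO replicate 3. Without male wild-type replicate 3 the wild-type count was 3 (of 5760), and without any other wild-type library 1 (of 4568 to 4975). Over all genes, DESeq2 called 27 for KO in female cells, 6 in male cells, 33 in the average and 4 for the difference between the sexes, where edgeR called 2, 1, 3 and 0. The causes were not tested.

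The replicate block over all libraries called 0 of the 10 genes for KO, 3 between the sexes in wild type (Lmnb1 was added) and 1 in KO. Blocking the paired male libraries only called 0 for KO in male cells after adjustment, with a log2 change of 0.09 for Hnrnpu (95% interval 0.00 to 0.19), and over all genes called 2 in male cells and 10 in the average, against 1 and 3 without the block; it changed no call of the 10 genes.

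Leaving out 1 library moved the log2 value by over 1.5 times for 9 of the 10 genes in the female KO comparison (Lmna was the exception), 10 in the male one, 6 between the wild-type sexes and 9 between the KO sexes (Banf1 was the exception). Some changes turned sign, among them the largest in male cells, that of Lmnb1. Lmnb2 between the wild-type sexes was -0.016 with no filter and -0.021 with both male replicate 3 libraries left out. The latter also gave, for KO in male cells, Lmnb2 -0.058, Emd -0.024, Tmpo -0.0050 and Banf1 -0.015, for the sex difference of the KO effect Hnrnpu 0.029, for wild-type sexes Emd -0.028, and for KO sexes Matr3 0.020 and Lbr 0.010. Over single libraries left out, KO changes in male cells ranged from -0.030 to 0.29 (Lmnb1), -0.034 to 0.098 (Lmnb2), -0.034 to 0.076 (Emd), -0.098 to 0.0073 (Lmna), -0.078 to 0.21 (Tmpo), -0.023 to 0.065 (Banf1), -0.039 to 0.023 (Safb) and -0.018 to 0.068 (Matr3). In female cells they ranged from -0.014 to 0.055 (Emd) and -0.099 to 0.013 (Tmpo), and the sex difference of the KO effect from -0.067 to 0.065 (Hnrnpu). Female minus male values ranged from -0.022 to 0.015 (Lmnb2) and -0.028 to 0.082 (Emd) in wild type, and from -0.038 to 0.094 (Lmnb2), -0.062 to 0.020 (Matr3) and -0.17 to 0.0099 (Lbr) in KO.

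Of 280 recomputed group levels, 1 moved by more than 1 SD, the CPM of Tmpo in female wild-type cells with total counts as library size, 205.1. The levels with 1 library left out could not have moved that far, since leaving out 1 of 3 replicates always shifts a mean by less than 1 SD. Only the CPM values with total counts as library size could, so the count is no measure of stability over libraries.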
